A study of Oryza sativa with 8 samples.

Results

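Callus grown from the scutellum of Nipponbare rice, a japonica variety, held a set of genes whose RNA was lower after abscisic acid (ABA) and higher after gibberellin (GA) than in untreated callus. The set was chosen from the measurements themselves. A probe was taken when its mean log2 ratio of treated over untreated callus was at most −0.7 over the 4 ABA arrays and at least 0.7 over the 4 GA arrays, with the same sign on all 4 arrays of each hormone. A log2 ratio of 0.7 is a 1.62-fold difference. Of 17782 probes analysed, 84 met the rule, or 0.472 percent of the probes, for 82 of the 15636 genes that a probe of their own measured. A further 7 probes met the same thresholds and were left out by name: the peroxidase gene LOC4344277, the ammonium transporter gene AMT2-2, and expansin, CASP, JAZ and IAA genes. Because the values chose the members, the members' own ratios are a description and carry no test.

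The callus had been cultured for 30 d with 10 µM of the synthetic auxin 2,4-D, and then for 3 d with 50 µM of ABA or 50 µM of GA. Each array of the NIAS 22K rice oligonucleotide design carried treated and untreated callus RNA in 2 dyes. ABA arrays 24 and 20 and GA arrays 04 and 05 had the treated sample in Cy3, and ABA arrays 19 and 23 and GA arrays 07 and 08 had it in Cy5. Whether the arrays came from separate cultures is not in the labels, so the spread between them may be technical, nor whether they shared an untreated sample. All arrays compared treated and untreated callus of 1 variety grown with auxin, and no array compared the hormones directly. A 2-colour ratio gives no level, so the labelled tissue could not be checked against marker genes, and fewer cells of a type cannot be told apart from less RNA per cell.

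The labels describe the ratio as treated over untreated signal. As deposited, though, arrays of one hormone in opposite dyes correlated at −0.60 to −0.51 for ABA and at −0.82 to −0.70 for GA across the analysed probes, so the same direction cannot hold on all of them. Directions were therefore set from the labelled dyes, with the ratio read as Cy5 over Cy3, which is likely but not stated. Read that way, these correlations are 0.51 to 0.60 and 0.70 to 0.82. Arrays of one hormone in the same dye correlated more closely, at 0.94 for ABA and at 0.87 to 0.96 for GA. Between hormones, arrays with the treated samples in the same dye had correlations of −0.28 to −0.02, and those in opposite dyes −0.40 to −0.32. Were the ratio Cy3 over Cy5 on all arrays, every sign would turn and the 84 probes would be raised by ABA and lowered by GA. Were only the GA arrays turned, they would be lowered by both hormones. The fold sizes rest on a log base of 10, usual for the maker's software and not stated either. The ABA arrays carry higher numbers than all GA arrays, so a batch of arrays and the hormone cannot be told apart.

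As background, ABA and GA act against each other in cereal seeds. ABA binds receptors that release SnRK2 kinases, which switch on genes of stress tolerance and seed maturation and hold germination back. GA binds the receptor GID1, which leads to the breakdown of DELLA repressors and permits growth, wall loosening and use of reserves. The scutellum is the organ of the cereal embryo that lies against the endosperm, where both hormones act during germination.

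Over the 84 probes the median log2 ratio was −1.04 under ABA and 1.18 under GA, against −0.00 and −0.01 over all probes. The ABA means ran from −2.69 to −0.70 and the GA means from 0.70 to 2.36. The rise under GA was larger than the fall under ABA in 54 probes and smaller in 30. Both sizes reached 1 (2-fold) in 30 probes and 1.5 in 6. Within the members, the ABA and GA means had a Pearson r of −0.32 and a Spearman rho of −0.27 over 84 probes that share the same 8 arrays, a weak relation inside a range that the thresholds cut off.

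**Figure D1:**
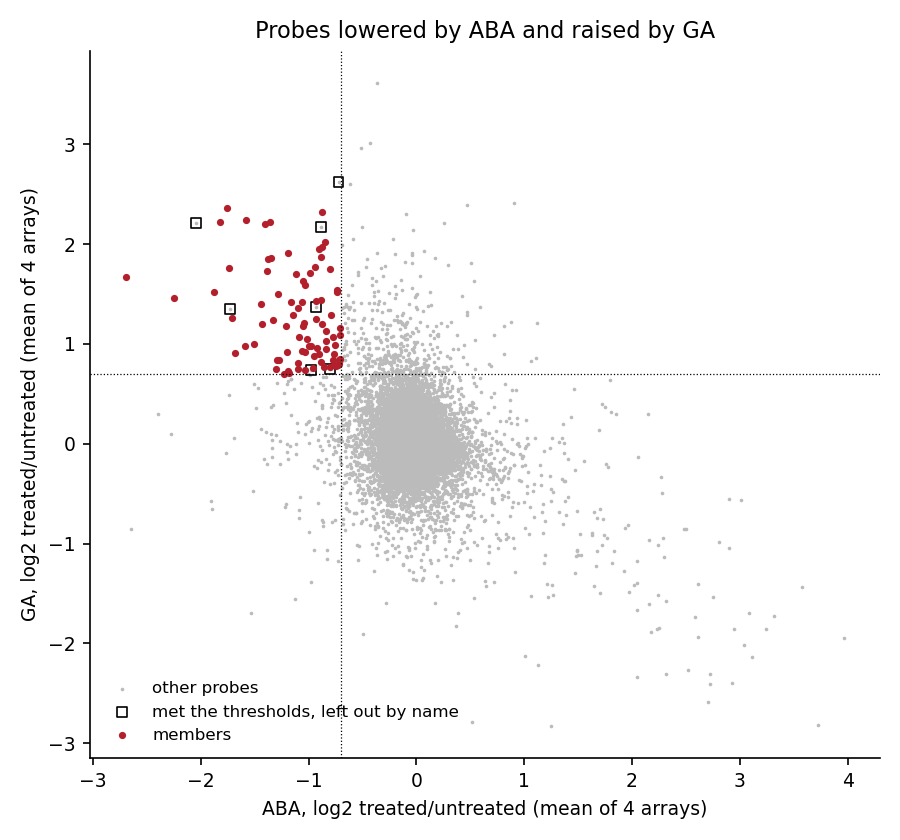
Mean log2 ratio of treated over untreated callus under ABA (x axis) and GA (y axis) for 17782 probes, with the thresholds of −0.7 and 0.7 as dotted lines. The 84 members (red) fill the upper left corner, and the 7 probes left out by name (open squares) lie among them.

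Member ratios kept the same side of 0 on every array, as the rule required. The median over the 84 members was −0.96, −1.08, −1.09 and −1.06 on ABA arrays 24, 20, 19 and 23. On GA arrays 04, 05, 07 and 08 it was 1.20, 1.20, 1.14 and 1.10. These medians differed little between the arrays of one hormone, which the rule favoured, since it set mean and sign over the same arrays. A median also hides dye shifts that run both ways. The Cy5 minus Cy3 difference of a member ran from −0.99 to 0.54 under ABA and from −0.76 to 0.68 under GA. Array 08 held the lowest single GA ratio, 0.20. The SD of a member over the 4 arrays had a median of 0.14 for ABA (range 0.03 to 0.57) and 0.14 for GA (range 0.02 to 0.52). The means of the Cy5 and Cy3 arrays of a hormone differed by more than 0.5 in 5 members under ABA and in 4 under GA.

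**Figure D2:**
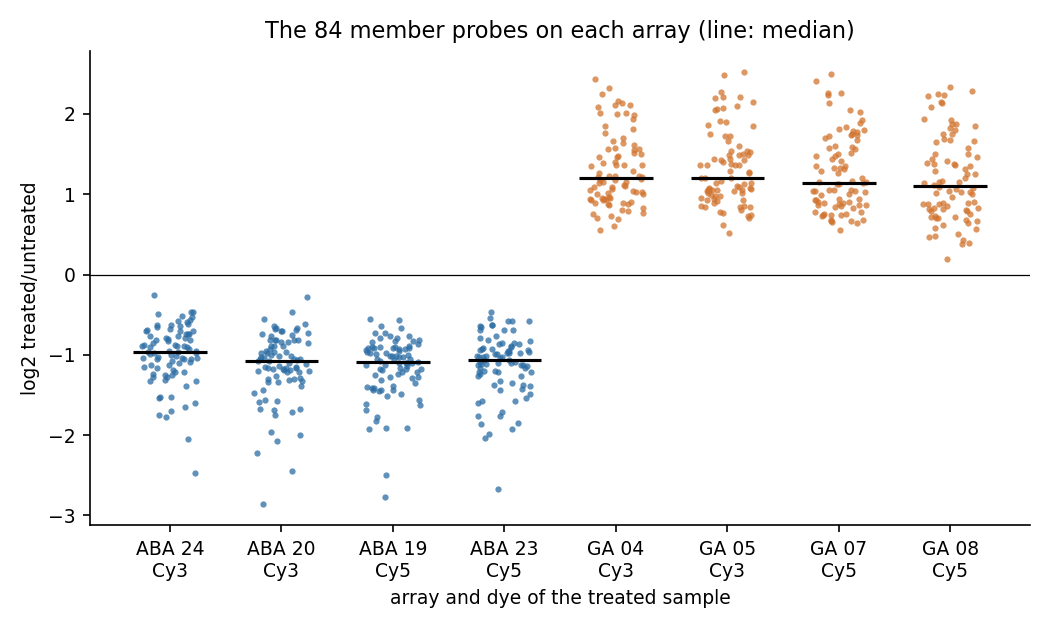
Log2 ratio of treated over untreated callus (y axis) of the 84 member probes on each array (x axis, with the dye of the treated sample), 1 point per probe and a line at the median. All ABA points lie below 0 and all GA points above it, and the medians run from −1.09 to −0.96 and from 1.10 to 1.20.

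Thresholds split neighbouring values. Just inside lay LOC4330791 (−0.71 under ABA, 0.85 under GA), LOC4326530 (−0.70 and 1.09) and LOC4350099 (−1.23 and 0.70). Just outside lay LOC4346141 (−1.01 and 0.70), LOC4350587 (−0.69 and 1.99) and a second probe of the gene PAL (−0.69 and 1.36). Of all 17782 probes, 239 were at or under −0.7 under ABA and 493 at or over 0.7 under GA. Both groups include the 7 probes left out by name. The 84 members are 35.1 percent of the first group, 17.0 percent of the second and 0.472 percent of all probes.

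A choice made on arrays of one dye orientation could be read on the arrays that it had not used. Applied to the 4 arrays with the treated sample in Cy3, the rule took 92 probes, of which 91 were below 0 on both ABA arrays and above 0 on both GA arrays of the other orientation (98.9 percent). Of all probes, 15.6 percent had these signs on those arrays. Their median ratio on the arrays not used was −1.03 under ABA and 1.15 under GA, and 56 of the 92 passed both thresholds again. Chosen on the Cy5 arrays, 82 of 83 probes kept their signs on the Cy3 arrays (98.8 percent, against 22.6 percent of all probes), with medians of −1.001 and 1.24. The probe that did not, LOC4325991, read −0.77 under ABA on the Cy5 arrays and 0.08 on the Cy3 arrays. Arrays of opposite dye may have carried the same RNA, so this repeats the measurement and not necessarily the culture. The shares of all probes are taken over ratios of any size, and not over probes with ratios as large as those chosen. Arrays of one hormone in opposite dyes also correlated above 0 over all analysed probes. Chosen probes were therefore likely to keep their signs, and the counts are no test of the set.

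**Figure D3:**
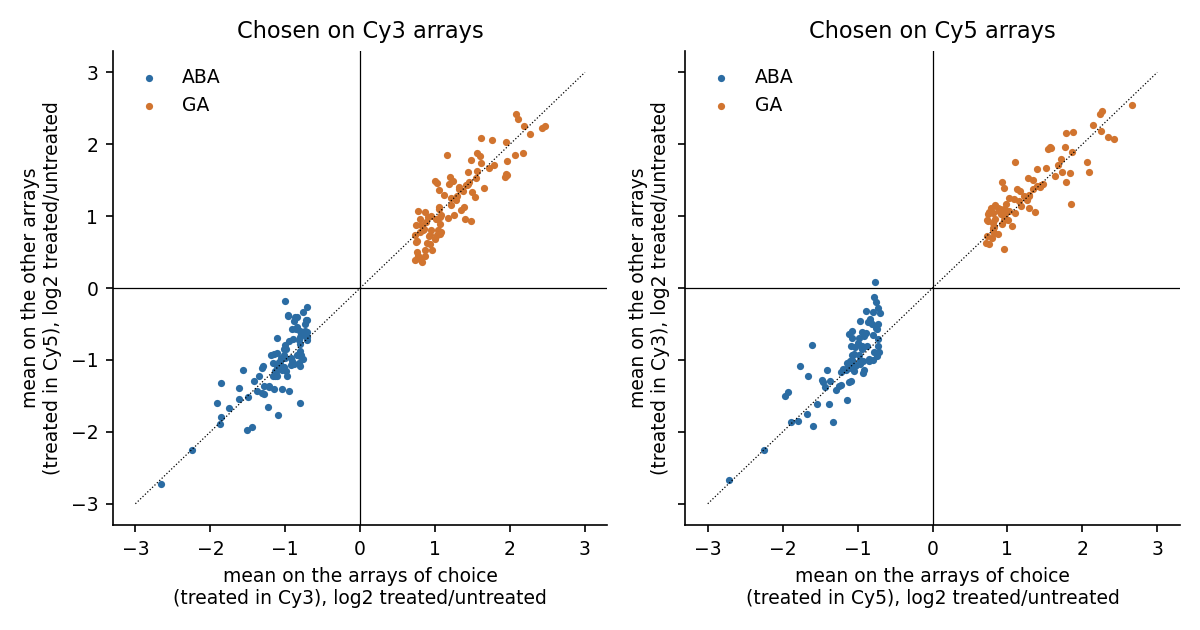
Mean log2 ratio on the arrays used for the choice (x axis) against that on the arrays not used (y axis), for the 92 probes chosen on Cy3 arrays (left) and the 83 chosen on Cy5 arrays (right). ABA points stay below 0 on the y axis except 1 in the right panel, at 0.08, and all GA points stay above 0.

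In limma, fitted over all 17782 probes with a dye term, all 84 members were called lower under ABA and higher under GA at an adjusted p under 0.05. The background was 23.7 percent of probes called lower under ABA, 26.2 percent called higher under GA and 9.67 percent called both ways. Nothing is read from the members' count, since these values chose them.

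Only 10 of the 82 genes (11 of the 84 probes) carry a gene name in the annotation, and 72 carry a locus number alone. Ratios by array are given below in the order 24, 20, 19, 23 for ABA and 04, 05, 07, 08 for GA, so that the first pair has the treated sample in Cy3. Means are ± SD over n = 4 arrays. With quantile normalization the GA means of CSLA9, SUS2 and Adh2 were 0.699, 0.679 and 0.665, under the threshold. Leaving out 1 array took the ABA mean of the second UGD4 probe to −0.63 (without array 19 or 23), that of SUS2 to −0.69 and −0.66 (without array 19 and 23), and the GA mean of Adh2 to 0.697 (without array 08).

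Signalling and regulation come first. SAPK9 encodes a SnRK2 kinase, of the family that carries the ABA signal. It read −0.96, −1.01, −0.91 and −0.79 under ABA and 0.89, 0.84, 1.05 and 1.06 under GA. The ranges lie on opposite sides of 0 with little spread inside either. The means were −0.92 ± 0.10 and 0.96 ± 0.11, a 1.89-fold lower RNA level after ABA and a 1.94-fold higher one after GA.

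MADS55 encodes a MADS-box transcription factor of the group named after SVP, a flowering regulator of Arabidopsis. Its ratios were −1.04, −1.04, −1.17 and −1.12 under ABA and 1.06, 1.04, 1.13 and 1.07 under GA. Fall and rise were of nearly equal size (−1.09 ± 0.06 and 1.07 ± 0.04). ERG3, also listed as RPP16, is named as an elicitor-responsive gene and encodes a small protein of the C2-domain type. It stood at −1.28, −1.33, −1.18 and −1.06 under ABA and at 1.22, 1.20, 1.15 and 1.17 under GA. This was the named member with the largest smaller change of the pair, at −1.21 ± 0.12 (2.32-fold lower) and 1.18 ± 0.03 (2.27-fold higher).

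GRXS2 encodes a glutaredoxin, a small protein that uses glutathione to reduce or modify protein thiols. Its ratios were −0.59, −0.61, −1.08 and −1.06 under ABA and 1.08, 1.13, 0.75 and 0.83 under GA. The arrays of a pair agree closely, and the pairs differ: the ABA mean was −0.60 in Cy3 and −1.07 in Cy5. Over all 4 arrays it was −0.84 ± 0.27 under ABA and 0.95 ± 0.19 under GA. The other probe of the gene gave −0.49 ± 0.18 and 0.88 ± 0.16, in the same directions and under the ABA threshold.

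Several named members make or feed cell wall material. UGD4 encodes a UDP-glucose dehydrogenase, which makes UDP-glucuronate, the precursor of the acidic sugars, xylose and arabinose of wall polysaccharides. Both of its probes are members. The first read −0.63, −0.70, −0.92 and −0.90 under ABA and 1.29, 1.28, 1.33 and 1.26 under GA, and the second −0.47, −0.46, −0.97 and −0.95 under ABA and 1.18, 1.11, 1.20 and 1.16 under GA. The GA ratios hardly moved between arrays, while the ABA ratios were smaller in size on the Cy3 pair. The means were −0.79 ± 0.14 and 1.29 ± 0.03 for the first probe (2.44-fold higher under GA), and −0.71 ± 0.29 and 1.16 ± 0.04 for the second.

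CSLA9, also listed as CSLA1, belongs to the cellulose synthase-like family A, whose members make the mannan backbone. It gave −1.06, −1.16, −1.08 and −1.10 under ABA and 0.73, 0.77, 0.93 and 0.82 under GA. The fall under ABA (−1.10 ± 0.04, 2.14-fold) was larger than the rise under GA (0.81 ± 0.08, 1.75-fold). PAL encodes phenylalanine ammonia-lyase, the first enzyme of the phenylpropanoid pathway, which leads to lignin and wall-bound phenolics. Its ratios were −1.12, −1.17, −0.98 and −0.86 under ABA and 1.57, 1.54, 1.58 and 1.67 under GA. The rise was the larger change (1.59 ± 0.06, 3.01-fold, against −1.03 ± 0.14, 2.04-fold), and the gene's other probe gave 1.36 ± 0.07 and −0.69 ± 0.05.

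STLP3 is named for its likeness to animal sialyltransferases, Golgi enzymes that modify glycans. It read −1.22, −1.68, −1.92 and −1.93 under ABA and 1.15, 0.97, 1.04 and 0.47 under GA. Array 08 was the lowest of the GA arrays for this gene. The ABA mean, −1.69 ± 0.33 (3.22-fold lower), was the lowest of the named members, beside 0.91 ± 0.30 under GA.

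The last pair of named members belongs to sugar and energy metabolism. SUS2 encodes a sucrose synthase, which splits sucrose into fructose and UDP-glucose, the substrate of UDP-glucose dehydrogenase. Its ratios were −0.53, −0.55, −0.90 and −0.99 under ABA and 0.95, 0.99, 0.66 and 0.51 under GA. As for GRXS2, the dye pairs did not overlap: ABA gave the larger fall in Cy5 and GA the larger rise in Cy3. The means were −0.74 ± 0.23 and 0.78 ± 0.23, and the other probe gave −0.51 ± 0.09 and 0.70 ± 0.08.

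Adh2 encodes an alcohol dehydrogenase, which reduces acetaldehyde to ethanol in fermentation. It gave −0.89, −1.06, −0.73 and −0.54 under ABA and 0.60, 0.62, 0.87 and 1.003 under GA. Here the pattern of the dyes was the reverse of that of SUS2, with the larger fall in Cy3 and the larger rise in Cy5. The means were −0.81 ± 0.22 (1.75-fold lower) and 0.77 ± 0.20 (1.71-fold higher).

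**Figure D4:**
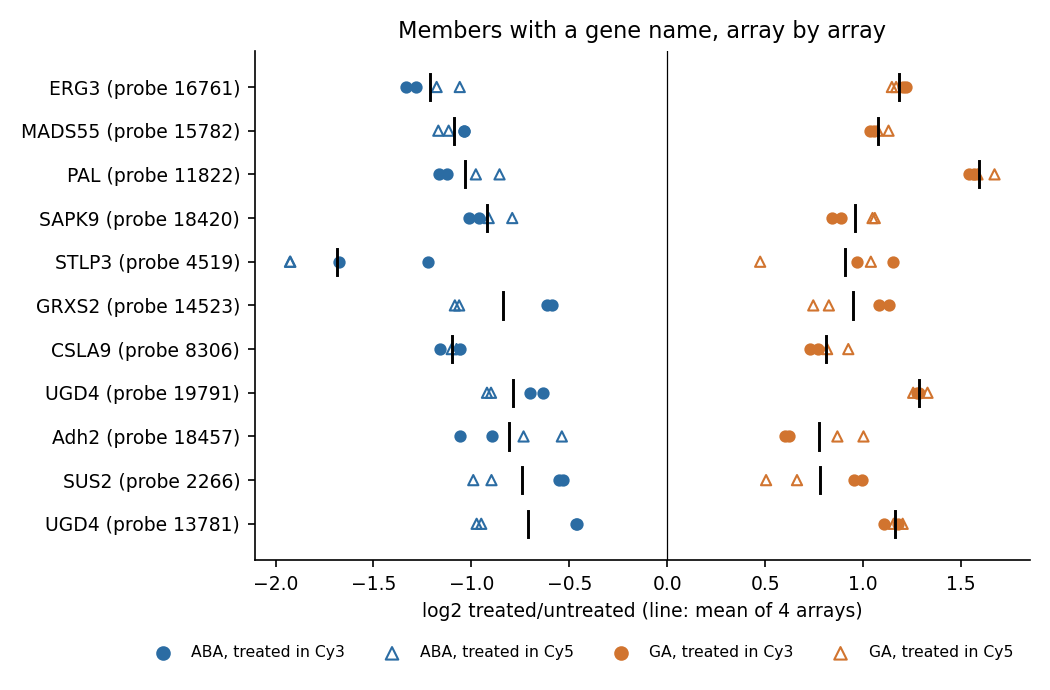
Log2 ratio of treated over untreated callus (x axis) on each of the 8 arrays for the 11 member probes with a gene name (y axis), filled circles for the treated sample in Cy3, open triangles for Cy5 and a line at the mean of 4 arrays. Under ABA the Cy3 and Cy5 values are separate for every probe but that of CSLA9. The gaps are widest for GRXS2, SUS2 and the second UGD4 probe, while the values of MADS55 and CSLA9 lie close together.

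The largest opposed changes were in genes with a locus number only, singled out after their values were seen. LOC4349727 had the lowest ABA ratio of the set, at −2.47, −2.86, −2.77 and −2.67 on the 4 ABA arrays (mean −2.69 ± 0.17, 6.46-fold lower), beside 1.62, 1.61, 1.78 and 1.68 under GA (1.67 ± 0.08). LOC4341221 had the highest GA ratio, at 2.44, 2.48, 2.26 and 2.25 (mean 2.36 ± 0.12, 5.13-fold higher). Its ABA ratios were −1.60, −2.22, −1.62 and −1.58, with array 20 apart from the rest. LOC4326764 followed with −1.82 ± 0.13 under ABA and 2.23 ± 0.15 under GA, LOC4348971 with −1.58 ± 0.09 and 2.25 ± 0.21, LOC4344051 with −1.88 ± 0.08 and 1.52 ± 0.15, and LOC4344500 with −1.74 ± 0.31 and 1.76 ± 0.26. These 6 are the members with both sizes over 1.5. The other 67 unnamed probes had smaller sizes in at least one hormone, down to the thresholds.

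Repeat probes show how far a member's ratio held for its gene. Of the 82 genes, 12 had more than 1 probe analysed, and in UGD4 and LOC4340477 both probes were members. The remaining 10 such genes had 10 further probes, of which 7 were below 0 under ABA and above 0 under GA. The share of all probes with this pair of mean signs was not counted, so nothing is read from this number. Some of these 7 were much smaller in size than the member: LOC4352652 gave −0.13 and 0.11, called in neither hormone, against −0.90 and 0.90, and LOC4336660 gave −0.23 under ABA against −1.38. The exceptions in sign were LOC4337482, whose other probe gave −0.00 and −0.11 against −1.05 and 1.21 for the member, LOC4331596 (0.07 and 0.06 against −1.59 and 0.98) and LOC4344567 (0.07 and 0.57 against −1.35 and 1.87). Probe sequences were not used here, so whether such a pair reads different transcripts, or a probe reads a related gene, was not tested.

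Relatives of the named members were then set beside them, over families matched on gene symbols and synonyms. Relatives that carry a locus number alone are missing from these lists, so the counts and medians cover only the named part of a family. Counts are probes called by limma at an adjusted p under 0.05, to be read against the background above and against 18 percent of all probes called higher under ABA and 22.8 percent called lower under GA. The member probes are in these counts and in the medians, and had to pass.

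Among SnRK2 kinases, 11 probes for 9 genes, 2 were lower and 4 higher under ABA, and 3 were higher and 3 lower under GA, with median ratios of 0.08 and −0.02. SAPK9 and SAPK1 were called lower under ABA and higher under GA, SAPK1 at −0.25 ± 0.11 and 0.21 ± 0.16. The GA call of SAPK1 ended without array 05 or 08. SAPK4 moved the other way on both probes (0.19 ± 0.06 and 0.35 ± 0.60 under ABA, −0.50 ± 0.08 and −0.59 ± 0.43 under GA), but the calls of its second probe ended without the dye term, and its ABA call also without ABA array 24, 20 or 19. One probe of SAPK3 had the highest ABA ratio of the family (0.64 ± 0.12, called higher), and its other probe gave 0.08 ± 0.20, not called. SAPK2 rose under ABA (0.25 ± 0.11) and SAPK7 under GA (0.40 ± 0.08).

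UGD4 and UGD5 lie next to each other on the chromosome, with 0 annotated genes between. They had 4 probes, of which 4 were lower under ABA and 2, both of UGD4, higher under GA. The medians of −0.49 under ABA and 0.56 under GA take in these 2 members, which were chosen by their values. UGD5 gave −0.12 ± 0.07 and −0.05 ± 0.07 on its 2 probes under GA, neither of them called (the first was called lower with a dye term for each hormone), against 1.29 and 1.16 for UGD4. Under ABA UGD5 fell by less, with −0.26 ± 0.21 and −0.20 ± 0.05. The difference between the genes was not tested, since UGD4 was chosen by these values.

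Of 20 probes for 15 cellulose synthase-like genes, 6 were lower and 2 higher under ABA, and 6 were higher and 3 lower under GA, with medians of −0.03 and 0.04. Besides CSLA9, 3 probes were called lower under ABA and higher under GA: CSLH1, of a subfamily that makes mixed-linkage glucan (−0.27 ± 0.07 and 1.34 ± 0.18), CSLC3, of the xyloglucan subfamily (−0.22 ± 0.05 and 0.62 ± 0.09), and CSLA7 (−0.19 ± 0.21 and 0.42 ± 0.11), whose ABA call ended without the dye term. CSLA5, of the same subfamily as CSLA9, rose under ABA (0.74 ± 0.12). Cellulose synthases themselves gave 1 lower and 1 higher of 12 probes under ABA, and 5 higher and 0 lower under GA, with medians of 0.02 and 0.08. Only CESA8 among them was called both ways (−0.31 ± 0.07 and 0.61 ± 0.11).

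Phenylpropanoid genes gave 10 lower and 4 higher of 19 probes under ABA, and 8 higher and 3 lower under GA, with medians of −0.16 and 0.09. Both ways were called 6 probes, including both of PAL. HCT2, named as a hydroxycinnamoyl transferase (−0.50 ± 0.08 and 1.24 ± 0.25), and CAD7, a cinnamyl alcohol dehydrogenase of monolignol synthesis (−0.62 ± 0.06 and 0.49 ± 0.13), were among them. 4CL3, a coenzyme A ligase of the pathway, had the highest GA ratio of the list (1.86 ± 0.08) and was also called higher under ABA (0.18 ± 0.05), a call lost with scale normalization. 4CL1, of the same enzyme family, rose under GA (0.71 ± 0.14), while its small ABA ratio of −0.18 ± 0.22 lost its call without the dye term, with median centring, scale or quantile normalization, and without array 20, 19, 23, 05 or 08. CCR1, a cinnamoyl-CoA reductase, fell under ABA (−1.20 ± 0.10) and stood at −0.08 ± 0.14 under GA, called lower only with a dye term for each hormone or without array 20. CAD2 likewise fell under ABA on both probes (−0.57 ± 0.19 and −0.46 ± 0.09), with GA ratios of 0.00 and 0.02.

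Sucrose synthase genes were split under ABA. Of 9 probes for 6 genes 3 were lower under ABA, both of SUS2 and that of SUS1, and 3 were higher. Under GA 5 were higher and 2 lower. The medians were −0.00 under ABA and 0.17 under GA. SUS1 fell under ABA and rose under GA like SUS2 (−0.23 ± 0.11 and 0.66 ± 0.08). SUS3 rose under ABA (0.94 ± 0.25) and stood at 0.01 ± 0.04 under GA. SUS4 rose under ABA on both probes (0.91 ± 0.24 and 0.85 ± 0.42), and its GA ratios of −0.21 ± 0.28 and −0.30 ± 0.26 lost their calls without the dye term.

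In fermentation, PDC1, a pyruvate decarboxylase that makes the acetaldehyde used by alcohol dehydrogenase, was called both ways like Adh2 (−0.66 ± 0.11 and 0.53 ± 0.18). PDC2 moved the other way (0.41 ± 0.04 and −0.23 ± 0.18). Of the 4 probes of this list 2 were lower and 1 higher under ABA, and 2 were higher and 1 lower under GA, with medians of −0.54 and 0.25.

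MADS-box genes, 24 probes, gave 6 lower and 7 higher under ABA and 5 higher and 5 lower under GA, with medians of 0.02 and 0.00. Besides MADS55, the probes called both ways were MADS56, MADS22 and MADS50. MADS56, related to the flowering activator SOC1 of Arabidopsis, gave −0.60 ± 0.34 and 1.60 ± 0.19. MADS22, of the same group as MADS55, fell by 0.67 under ABA (SD 0.05) and rose by only 0.19 ± 0.08 under GA. MADS50, also related to SOC1, fell under ABA (−0.42 ± 0.10), and its GA ratio of 0.11 ± 0.13 lost its call without the dye term, with scale or quantile normalization, and without array 24, 04, 05 or 08. MADS1, which specifies floral organs, rose under ABA and fell under GA (0.62 ± 0.16 and −0.78 ± 0.08).

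Glutaredoxins, 20 probes for 17 genes, gave 7 lower and 4 higher under ABA and 4 higher and 5 lower under GA, with medians of 0.02 and −0.01. Called both ways were both probes of GRXS2 and that of GRXC8 (−0.21 ± 0.04 and 0.39 ± 0.02). GRXS3 fell under both hormones (−0.82 ± 0.07 and −0.26 ± 0.03). Of 5 sialyltransferase-like probes 2 were lower under ABA and 3 higher under GA, with medians of −0.10 and 0.24, and STLP3 alone was called both ways.

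**Figure D5:**
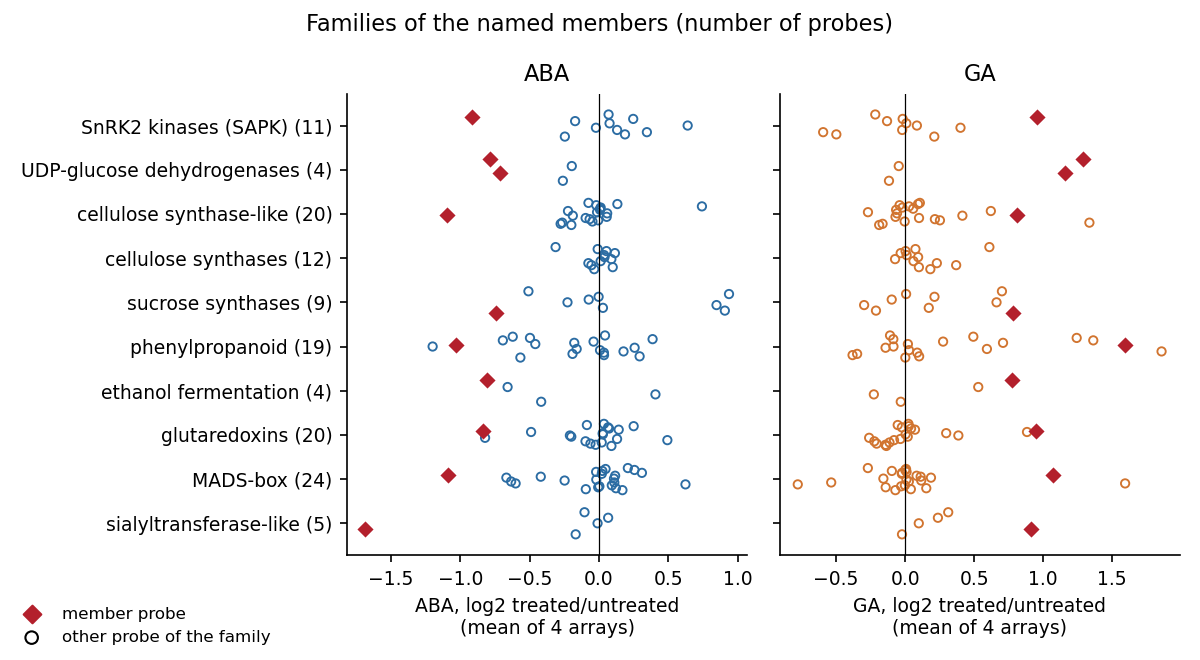
Mean log2 ratio of treated over untreated callus (x axes, ABA left, GA right) of the probes matched by symbol to the families of the named members (y axis). The number of probes is in brackets, with member probes as red diamonds and other probes as open circles. Relatives lie on both sides of 0 in most families, with SAPK3 at 0.64 under ABA, SAPK4 at −0.59 under GA, and 4CL3, MADS56 and CSLH1 at 1.86, 1.60 and 1.34 under GA.

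Positions along the chromosomes were not used by the rule. Member genes lay on all 12 chromosomes, with 2 to 12 on each. In 3 pairs at most 4 annotated genes lay between the members. How many such pairs other sets of measured genes hold was not counted, so nothing is read from this number. LOC4337140 (−1.19 and 1.91) and LOC9269929 (−1.12 and 1.70) had 2 genes between, and LOC4345961 (−0.84 and 1.13) and LOC4345964 (−1.35 and 2.22) had 4, as did LOC4346287 (−0.72 and 0.80) and LOC4346292 (−1.04 and 0.74). The member LOC4344276 (−1.41 and 2.20) had 1 gene between it and the peroxidase gene LOC4344277 (−2.04 and 2.22), which the rule left out.

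Genes directly beside a member, and not members themselves, were measured by 81 probes for 71 genes. Their median ratios were −0.01 under ABA and 0.05 under GA. Of the 81 probes 18 were called lower under ABA (22.2 percent), 26 higher under GA (32.1 percent) and 7 both ways (8.64 percent), near the background of 23.7, 26.2 and 9.67 percent.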

How the data were processed

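The deposited table gives, for 22575 features on 8 arrays, dye ratios that the authors LOWESS-normalized, per the labels, and that were taken as deposited log10 values. The labels describe treated over untreated signal, which the signs of opposite-dye arrays contradict; they state no log base, background correction or spot filters. Ratios were multiplied by 3.32 to give log2 values, the sign was turned on arrays with the treated sample in Cy3, and exact zeros were taken as missing. Of 17788 features listed with a gene, 17782 had at least 3 values per hormone and were fitted with limma 3.58.1 in R 4.3.3. The fit had a mean for each hormone and a shared dye term, and p-values were adjusted by Benjamini-Hochberg over all probes. It was also run on simulated data with noise drawn separately for each array. That run cannot show how the calls behave where arrays share RNA. Members needed 1 gene per probe.

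Genes were named through RefSeq symbols and synonyms (ASM3414082v1), which hold no gene descriptions, so lists written for descriptions were replaced by symbol-matched families. All members with a gene name are described, array by array. The members, families and lists were chosen with earlier results of these data known. No counts underlie the ratios, so the number of arrays limits the precision. If arrays shared a culture, the number of cultures, which the labels do not give, limits it further. The alternatives tried were other dye terms, normalizations, thresholds and probe filters, gene means, turned GA arrays, each array left out and, chosen after seeing the data, all arrays turned.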

Additional observations from a re-analysis of the deposited data

Results flagged for a closer look

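LOC4341221 read −2.22 on ABA array 20, apart from −1.60, −1.62 and −1.58 on the others. This gap took 93.7 percent of the range of the 4 arrays. Of 34 sets of 4 arrays looked at in this way, 1 stood out, and chance alone marks about 5 percent.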

How the results depend on the processing

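The set of 84 probes depended most on the sign given to the ratios. With the GA arrays turned, 14 other probes met the rule and 0 of the 84, with medians of −0.91 and 0.97. With all arrays turned, an alternative chosen after seeing the data, 91 other probes met it and 0 of the 84, with medians of −1.73 and 1.19. At a threshold of 0.5 the set held 183 probes with medians of −0.77 under ABA and 0.96 under GA, and at 1 it held 30, with −1.34 and 1.51. Without each array in turn the set held 81 to 91 probes, of which 79 to 83 were among the 84, and the medians ran from −1.04 to −1.01 under ABA and from 1.16 to 1.21 under GA. Quantile normalization gave 74 probes, 69 of them shared. Probes called lower under ABA numbered 4221, 2668 without the dye term and 3293 to 4913 without single arrays; those called higher under GA numbered 4660, 3499 without the dye term and 3951 to 4856 without single arrays. A dye term for each hormone gave 4986 and 5207. For family genes that are no members, only a part of the probes was followed through the alternatives. Of their values, 990 stayed as they were, called or not called, 27 lost their call and 3 gained one. Of those of the named members, 147 moved by less than their SD and 7, all GA means under quantile normalization, by more. Each ratio already pairs treated with untreated RNA on the same array. Arrays were not paired between the hormones, because the labels do not say whether they shared a culture or an untreated sample. Precision is limited by 4 arrays per hormone, and by the unknown number of cultures behind them.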

Other observations

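The 4787 features with no gene in the annotation behaved unlike the analysed probes. As deposited, ABA arrays of opposite dye correlated at 0.88 to 0.89 over these features, against −0.60 to −0.51 over the analysed probes. For GA arrays of opposite dye the values were −0.17 to 0.10 and −0.82 to −0.70. These features were left out of the fit, and what they carry was not analysed here.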
